A study of Homo sapiens with 6 samples.

Results

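The E2F transcription factors and the RB family were followed in HCT116 cells, an established human colorectal carcinoma line, after 16 h with auxin and in DMSO controls. The family here is 10 genes: the 8 E2F genes E2F1 to E2F8 and the pocket protein genes RB1 and RBL1, picked by their GENCODE release 29 symbols out of 58780 annotated genes. All 10 passed the filter on low counts, as did 19725 genes in all. RNA was sequenced from 3 libraries of auxin-treated cells and 3 libraries of DMSO control cells, and the labels call the libraries of a group biological replicates 1, 2 and 3. Auxin is a plant hormone that, in engineered mammalian cells, sends a suitably tagged protein to the proteasome. The labels name neither such a protein nor a tag, clone or line derived from HCT116, and the time in DMSO is not given.

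E2F proteins bind a short GC-rich motif at promoters and set the timing of genes for DNA synthesis. Most pair with a DP protein, and RB1 and its relatives bind the E2F part and hold the target gene silent until cyclin-dependent kinases phosphorylate the pocket protein. In colorectal carcinoma lines this pathway governs the passage from G1 into S phase.

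Libraries held 234035407 to 625892507 expected counts, and replicate 1 was the deepest of each group. Of 10 colon epithelium markers, 8 reached 1 TPM (a transcript level per unit of length) in every library, and VIL1 and CEACAM5 did not. PTPRC and CD3E were at 0 in every library, and no endothelium, fibroblast or hepatocyte marker reached 1 TPM throughout. The leukocyte list summed to 40.1 to 66.5 TPM in DMSO and 11.3 to 19.9 TPM in auxin, and only CD68, which is not restricted to leukocytes, reached 1 TPM throughout. With auxin, 5010 of 19725 tested genes were higher and 5311 lower at an adjusted p under 0.05 (edgeR's quasi-likelihood test with Benjamini-Hochberg adjustment), so 48.5% of the calls were higher. Upper-quartile factors in place of TMM scaling raised the median log2 fold change of all genes by 0.12 and the share of higher calls to 59.7%, and tests on log2(TPM + 1) or log2(TPM + 0.1) lowered it to 24.6% or 24.0%. Every value is relative to the rest of its library, so a change in the total RNA per cell cannot be seen. A change in every cell and a change in a part of the cells cannot be told apart, and p-values measure the spread between these libraries.

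E2F1, E2F2, E2F4, E2F7, E2F8, RB1 and RBL1 fell and E2F5 rose, while E2F3 and E2F6 did not pass the test. The 7 members called lower stand beside 26.9% of all tested genes called lower, and the 1 member called higher beside 25.4% called higher. All members are coding genes. Among tested coding genes in 25% classes by gene length, 23.6% to 44.2% were called lower and 19.4% to 34.6% higher. Among the 7, 4 fell by at least 2-fold and 2 by at least 4-fold, against 13.3% and 4.9% of all tested genes. In counts scaled to the library total (CPM, with TMM factors), 8 members lay lower in all auxin libraries than in any DMSO library, against 30.4% of all tested genes. The only member that lay wholly higher was E2F5, against 30.0% of all tested genes. The median log2 fold change was -0.79 over the 10 members and 0.025 over all tested genes.

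**Figure D1:**
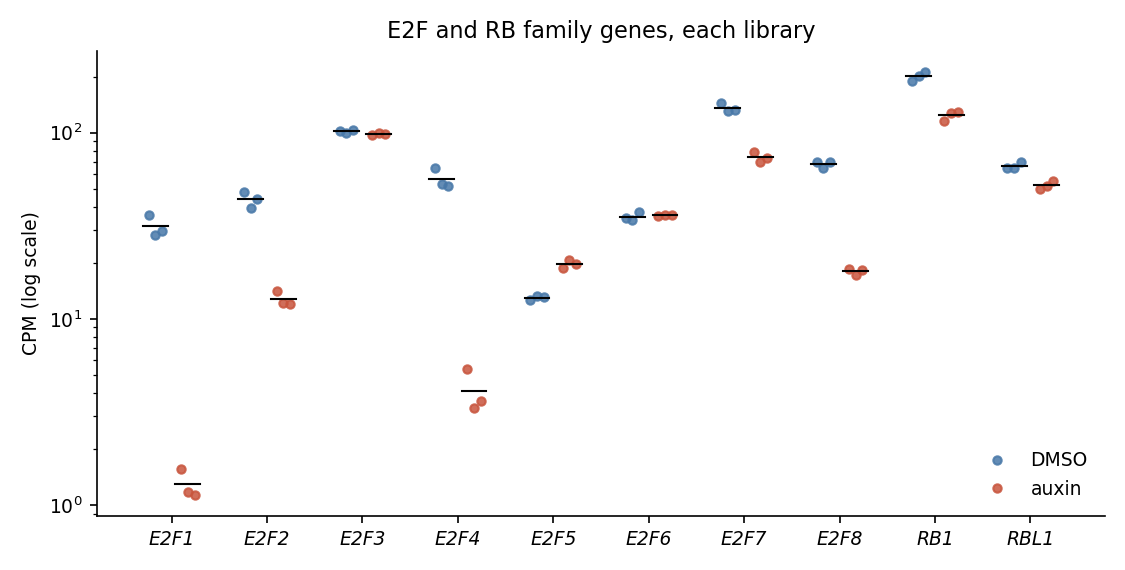
CPM (log scale) of the 10 genes in each of the 3 DMSO and 3 auxin libraries; each point is a library and each bar the mean of a group. The E2F1 points go from 28.3 to 36.3 in DMSO to 1.14 to 1.57 in auxin, E2F5 is the only gene whose auxin points all lie above its DMSO points, and the E2F6 points overlap.

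E2F1 encodes the activator E2F that drives S phase genes and can also turn on apoptosis genes. E2F1 (ENSG00000101412, GRCh38 chr20:33675683-33686404, minus strand) stood at 36.3, 28.3 and 29.8 CPM in DMSO replicates 1, 2 and 3 and at 1.57, 1.18 and 1.14 CPM in auxin replicates 1, 2 and 3. All auxin values lay far below all DMSO values, and replicate 1 was the highest of its group on both sides. The log2 fold change of E2F1 was -4.59 ± 0.17 (SE), a 24.0-fold drop with an edgeR adjusted p of 3.17e-06, and only 7 of 19725 tested genes had a lower one. The auxin libraries kept 4.16% of the DMSO level, resting on 253 to 1015 counts per auxin library. E2F1 has a single annotated transcript of 7 exons, so no shift between transcripts can be read from these tables.

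E2F2, another activator that binds RB1, stood at 48.3, 39.5 and 44.2 CPM in DMSO and 14.1, 12.2 and 12 CPM in auxin. Its groups did not overlap, and its log2 fold change was -1.78 ± 0.10 (SE), a 3.44-fold drop (edgeR adjusted p = 1.53e-05). E2F2 lies at chr1:23506430-23531220 on the minus strand, and its main transcript took 99.8% of its counts in both groups.

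E2F3, the last of the activators, is made from an upstream and an inner start that give a long and a short protein. It stood at 102, 100 and 103 CPM in DMSO and 97.5, 99.8 and 98.5 CPM in auxin. The ranges did not overlap but nearly touched, and the log2 fold change of -0.046 had a 95% confidence interval of -0.16 to 0.068 (edgeR adjusted p = 0.46). The sign depended on scaling: it was 0.075 with upper-quartile factors, and -0.18 with GC-corrected offsets, where the test passed (edgeR adjusted p = 0.0266). E2F3 lies at chr6:20401906-20493715 on the plus strand.

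RefSeq (GRCh38.p14) gave a promoter at an annotated coding transcript start for 7 members, with 2 entries for E2F3; E2F5, E2F8 and RB1 were without one. In the 250 bases before the start, the E2F letters TTTCCCGC, TTTCGCGC, TTTGGCGC or TTTGCCGC on either strand were found at E2F1, E2F2, RBL1 and the upstream start of E2F3, and in 2.79% of all 35116 promoters. The stretches are shown because they hold every such match among the 7 members with an entry. Each reads 5′ to 3′ on the strand of its gene, with the E2F letters in capitals (on the opposite strand where they read GCGGCAAA or GCGGGAAA).
E2F1 chr20:33686386-33686438, minus strand: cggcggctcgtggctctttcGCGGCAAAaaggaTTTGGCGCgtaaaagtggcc
E2F2 chr1:23531248-23531295, minus strand: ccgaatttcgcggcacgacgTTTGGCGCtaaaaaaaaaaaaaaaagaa
E2F3 chr6:20401806-20401853, plus strand: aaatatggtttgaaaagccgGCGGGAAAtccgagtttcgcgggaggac
RBL1 chr20:37095998-37096043, minus strand: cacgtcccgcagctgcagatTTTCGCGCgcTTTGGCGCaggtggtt

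The E2F1 and RBL1 stretches each hold 2 matches within 33 bases of the start, and E2F1 fell 24.0-fold and RBL1 1.27-fold. E2F3 holds a match before E2F3-203 and was not called. E2F4, which fell 13.7-fold, holds none in this window, as do E2F6, E2F7 and the inner start of E2F3. Any part of these letters in the changes was not tested. Among all tested genes with a promoter entry, the 510 with E2F letters had a median log2 fold change of -0.083 and 39.6% called lower, and the 11107 without had 0.0025 and 32.1%. The letters of the cell cycle homology region, TTTGAA on either strand, which DREAM binds through LIN54, occurred in the upstream E2F3 promoter and in 13.3% of all promoters. CCAAT, the box bound by NF-Y, occurred on either strand 3 times at E2F1, 4 times at the upstream E2F3 start and 4 times at E2F7, and in 32.0% of all promoters.

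E2F4 and E2F5 are the E2Fs that sit with RBL1 and RBL2 on silent promoters in resting and early G1 cells. E2F4 (chr16:67192169-67198918, plus strand) stood at 64.9, 53.3 and 51.6 CPM in DMSO and 5.38, 3.31 and 3.62 CPM in auxin. Every auxin library was far below every DMSO library, and replicate 1 was again the highest of each group. Its log2 fold change was -3.78 ± 0.21 (SE), a 13.7-fold drop (edgeR adjusted p = 1.31e-05), with 52 tested genes lower.

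E2F5 (chr8:85177225-85217158, plus strand), the closest relative of E2F4, went the other way. It stood at 12.6, 13.2 and 13.1 CPM in DMSO and 18.7, 20.6 and 19.8 CPM in auxin, without overlap. Its log2 fold change was 0.60 ± 0.069 (SE), a 1.52-fold rise (edgeR adjusted p = 0.000342). On log2(TPM + 1) and log2(TPM + 0.1) the rise was 0.39 and 0.43 and the call ended (limma adjusted p = 0.166 and 0.145). E2F5 shares 3083 bases with C8orf59 on the opposite strand, and whether reads were counted by strand is not given in the sources used here. C8orf59 stood higher than E2F5, at 57.4 CPM in DMSO and 68.7 CPM in auxin. It rose by 0.26 on the log2 scale (edgeR adjusted p = 0.0287), and any part of its reads in the E2F5 rise was not tested. The ratio of E2F4 to E2F5 in TPM was 4.53, 3.43 and 3.46 in DMSO and 0.347, 0.203 and 0.211 in auxin, so the more abundant of the pair changed from E2F4 to E2F5 in every library.

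E2F6 binds no pocket protein and represses with a Polycomb complex known as PRC1.6. It stood at 35.0, 33.8 and 37.3 CPM in DMSO and 35.5, 36.1 and 36.2 CPM in auxin, with the auxin values inside the DMSO range. The log2 fold change was 0.023 with a 95% confidence interval of -0.12 to 0.16 (edgeR adjusted p = 0.771), and its sign turned to -0.031 without DMSO replicate 2 and to -0.13 on either TPM scale. E2F6 lies at chr2:11444375-11466177 on the minus strand.

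E2F7 and E2F8 are atypical E2Fs that bind DNA without a DP partner and shut E2F target genes down late in S phase. E2F7 (chr12:77021247-77065580, minus strand) stood at 144, 130 and 133 CPM in DMSO and 79.2, 70.0 and 73.3 CPM in auxin. E2F8 (chr11:19224063-19241620, minus strand) stood at 69.7, 64.7 and 69.2 CPM in DMSO and 18.6, 17.3 and 18.3 CPM in auxin. Neither gene's groups overlapped, and the libraries of each group lay close together. The log2 fold change was -0.87 ± 0.07 (SE) for E2F7 and -1.91 ± 0.061 (SE) for E2F8, drops of 1.83-fold and 3.75-fold (edgeR adjusted p = 6.46e-05 and 1.99e-06). The TPM ratio of E2F7 to E2F8 was 1.78, 1.90 and 1.83 in DMSO and 3.30, 3.98 and 3.96 in auxin.

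RB1, the retinoblastoma tumor suppressor, binds mainly the activator E2Fs, and RBL1 binds mainly E2F4 and E2F5. RB1 (chr13:48303726-48599436, plus strand) stood at 189, 202 and 212 CPM in DMSO and 115, 127 and 129 CPM in auxin, without overlap. Its log2 fold change was -0.70 ± 0.073 (SE), a 1.62-fold drop (edgeR adjusted p = 0.000209). RB1 shares 44298 bases with RCBTB2 on the opposite strand. RCBTB2 was far lower, at 1.95 CPM in DMSO and 3.89 CPM in auxin, and rose by 1.00 on the log2 scale. The annotated RB1 gene reaches position 48599436 only through RB1-207, which had 0 counts in every library. The main transcript RB1-201 ends at position 48481890. RBL1 (chr20:36996349-37095995, minus strand) stood at 65.0, 64.5 and 69.7 CPM in DMSO and 50, 51.5 and 54.7 CPM in auxin. These groups also did not overlap, though the gap was small, and the log2 fold change was -0.35 ± 0.06 (SE), a 1.27-fold drop (edgeR adjusted p = 0.00226). The RBL1 call ended on log2(TPM + 1) and log2(TPM + 0.1), at -0.45 and -0.49 (limma adjusted p = 0.169 and 0.149). E2F1 per RB1 in TPM was 0.379, 0.277 and 0.278 in DMSO and 0.0271, 0.0184 and 0.0175 in auxin, so the activator lost more of its mRNA than the pocket protein that binds it.

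**Figure D2:**
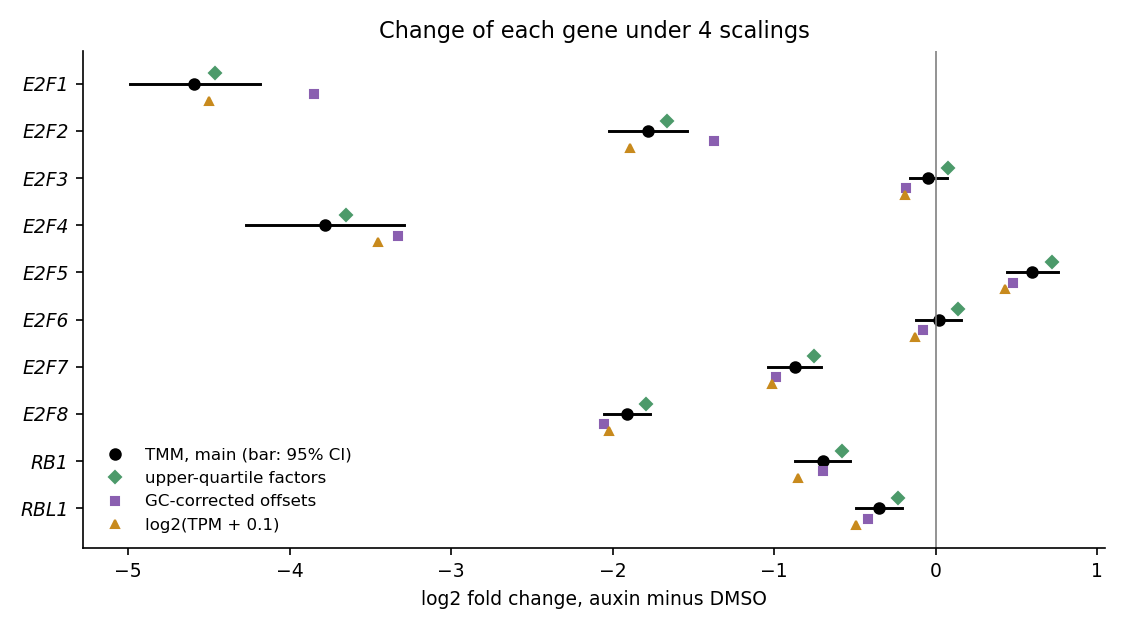
Log2 fold change (auxin minus DMSO) of each gene with TMM scaling (circle, bar: 95% confidence interval), upper-quartile factors (diamond), GC-corrected offsets (square) and limma on log2(TPM + 0.1) (triangle). E2F1 stays between -4.59 and -3.85 and E2F4 between -3.78 and -3.33 under these 4 scalings, and the signs of E2F3 and E2F6 differ between them.

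E2F1 and E2F4, the members that fell most, are short and rich in G and C. E2F4 spans 6.75 kb and E2F1 10.7 kb, and both are in the shortest 25% of the tested coding genes (up to 13 kb), where the median log2 fold change was -0.26 and 44.2% were called lower. E2F3, RB1 and RBL1 span 91.8, 296 and 99.6 kb and are in the longest 25%, where the median was 0.11 and 23.6% were called lower. E2F1, E2F2 and E2F4 have main transcripts with 62.5%, 57.5% and 58.1% G and C, in the 25% of coding genes richest in them, where the median was -0.72 and 58.2% were called lower. With GC-corrected offsets, an alternative chosen after seeing the data, E2F1 was at -3.85, E2F2 at -1.37 and E2F4 at -3.33, all still called. E2F8, which fell 3.75-fold, spans 17.6 kb, in the class of 13 to 33 kb, where the median was -0.057 and 36.5% were called lower. Its most abundant transcript in TPM has 47.3% G and C, in the class of 42.8% to 49.4%. There the median was 0.18 and 18.7% were called lower. Gene length was not part of any fit, and its part in these results was not tested.

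In TPM, which allows levels of different genes to be set side by side, the make-up of E2F mRNA changed. These TPM sum all annotated transcripts of a gene, short and non-coding ones included. E2F7-203, of 570 bases, had 3.57% of the E2F7 counts but 31.9% of its TPM in DMSO. In DMSO E2F7 ranked above E2F4 only with this transcript included. Transcripts annotated as targets of nonsense-mediated decay held 73.1% and 73.3% of the E2F6 TPM in DMSO and auxin. Transcripts that keep an intron held 5.67% and 45.6% of the E2F4 TPM. The 8 E2F genes summed to 218, 135 and 144 TPM in DMSO and 87.3, 68.6 and 73.2 TPM in auxin. The sum in DMSO replicate 1 was well above the other two DMSO libraries, and all 10 members had their highest TPM of the DMSO group there, so shares within a library are given instead. E2F4 dropped from 18.9% ± 1.56 to 3.62% ± 1.00 of the sum (SD, n = 3) and E2F1 from 8.28% ± 0.682 to 0.658% ± 0.126. E2F3 went from 14.3% ± 0.629 to 26.5% ± 0.271, E2F6 from 9.53% ± 0.768 to 18.5% ± 0.454, and E2F5 from 5.00% ± 0.428 to 14.4% ± 0.622. E2F7 had 25% ± 0.703 in DMSO and 26.3% ± 1.11 in auxin, a difference near the spread between libraries. In DMSO the order from highest to lowest was E2F7, E2F4, E2F3, E2F8, E2F6, E2F1, E2F2 and E2F5. With auxin it was E2F3, E2F7, E2F6, E2F5, E2F8, E2F4, E2F2 and E2F1. Neighbours whose shares overlapped between libraries were E2F3 with E2F8, E2F6 with E2F1 and E2F2 with E2F5 in DMSO, and E2F3 with E2F7 and E2F4 with E2F2 in auxin.

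**Figure D3:**
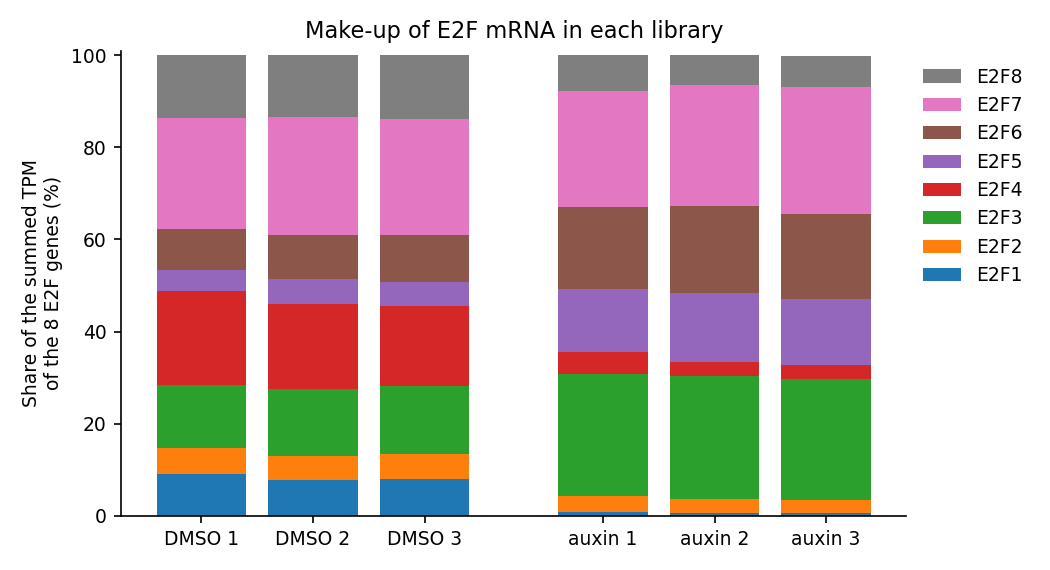
Share of the summed TPM of the 8 E2F genes (%) held by each gene, 1 stacked bar per library. The E2F4 block shrinks from 17.5% to 20.6% in the DMSO libraries to 3.03% to 4.78% in the auxin libraries, the E2F5 block widens from 4.54% to 5.39% to 13.8% to 15.0%, and the 3 libraries of a group look alike.

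The transcripts of E2F4 did not fall together. E2F4-201, the coding transcript of 10 exons, stood at 41.6, 23.5 and 23.5 TPM in DMSO and 2.13, 1.04 and 1.28 TPM in auxin. The 7 annotated E2F4 transcripts that keep an intron summed to 2.76, 1.19 and 1.54 TPM in DMSO and 1.87, 1.03 and 0.94 TPM in auxin, so their ranges overlapped while the coding transcript's did not. The retained-intron sum was the lower in auxin for each replicate number, and replicate 1 was the highest of each group. Of the counts assigned to E2F4, the retained-intron transcripts took 2.44% ± 0.349 in DMSO and 23.3% ± 2.53 in auxin (SD, n = 3), and E2F4-201 went from 97.3% ± 0.409 to 76.0% ± 3.25. On the log2 scale of a transcript's counts against the rest of the gene, E2F4-201 changed by -3.52 ± 0.20 (SE) (limma adjusted p = 0.000542). E2F4-203, with 3 exons, went from 0.658% to 8.80% of the counts, a change of 3.86 ± 0.35 (SE) (limma adjusted p = 0.00193).

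E2F4-208 and E2F4-211, the other called retained-intron transcripts, rose by 2.95 and 3.79 on the same scale. These 4 E2F4 transcripts were the called ones among 24 tested transcripts of the family, against 13.7% of 51813 tested transcripts in all, 8.13% called higher and 5.56% called lower. Of 7973 tested retained-intron transcripts in the whole table, 20.5% were called higher in share. In edgeR's diffSpliceDGE, which sets each transcript against the gene's common change, E2F4-201 was at -0.31 and not called (adjusted p = 1), while the 3 retained-intron transcripts stayed called. Transcript counts are estimates that divide shared reads, and in them a transcript that keeps its intron and RNA not yet fully spliced cannot be told apart.

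E2F3 showed a smaller difference between its starts. E2F3-201, from the upstream start, stood at 13.5, 8.38 and 8.88 TPM in DMSO and 8.90, 6.41 and 7.24 TPM in auxin, and E2F3-202, from the inner start, at 13.8, 10.2 and 11 TPM and 12.8, 11.1 and 11.1 TPM. The upstream transcript had 45.6% ± 2.02 of the E2F3 counts in DMSO and 38.9% ± 1.95 in auxin, and the inner one 48.9% ± 3.07 and 56.6% ± 2.47. These shares did not pass the test (limma adjusted p = 0.10 and 0.104), but did with the replicate number as a block (adjusted p = 0.0444 and 0.0328). The promoter stretch with E2F letters shown above lies at the start of E2F3-203, an upstream transcript with 5.58% of the counts in DMSO, and E2F3-201 begins further in, at position 20402167 of chromosome 6, before E2F3-202 at position 20403679.

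In 5 other members a leading transcript could be tested, and its share did not pass the test. E2F6-207, annotated as a target of nonsense-mediated decay, had 56.4% of the E2F6 counts in DMSO and 55.6% in auxin. The shares in DMSO and auxin were 62.9% and 63.0% for E2F5-202, 89.0% and 88.2% for E2F7-201, 47.9% and 47.5% for E2F8-202, and 90.4% and 88.4% for RBL1-202. The limma adjusted p of these ranged from 0.522 to 0.99. E2F8-201 was nearly level with E2F8-202, at 46.9% in DMSO and 48.3% in auxin. RB1-201 took 99.4% and 99.5% of the RB1 counts, too large a share to be tested.

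**Figure D4:**
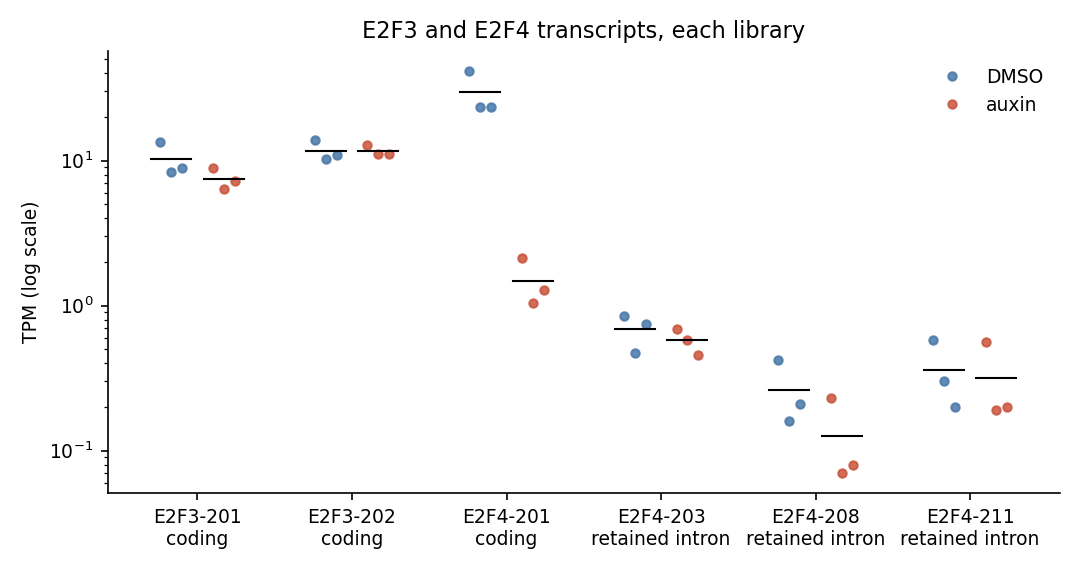
TPM (log scale) of 6 transcripts of E2F3 and E2F4 in each library; points are libraries and bars group means. E2F4-201 goes from 23.5 to 41.6 TPM to 1.04 to 2.13 TPM, while the DMSO and auxin points of the retained-intron transcripts E2F4-203, E2F4-208 and E2F4-211 overlap.

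The genes that work with the family were read from lists of known partners and targets. TFDP1, the main DP partner, fell, at 209, 192 and 200 CPM in DMSO and 158, 142 and 148 CPM in auxin, a log2 fold change of -0.42 ± 0.066 (SE). RBL2, the remaining pocket protein, rose, at 30.5, 32.6 and 28.0 CPM in DMSO and 49.2, 50.7 and 46.5 CPM in auxin, a log2 fold change of 0.68 ± 0.073 (SE). RBL2 thus rose while RB1 and RBL1 fell, and the RBL2 rise was not called on log2(TPM + 1) (0.44, limma adjusted p = 0.203) or log2(TPM + 0.1) (0.49, limma adjusted p = 0.175). The TFDP1 fall also missed the threshold on log2(TPM + 1) (limma adjusted p = 0.0514). TFDP2, the other DP partner, was at 0.16 (edgeR adjusted p = 0.169), was called with the replicate block (0.17, edgeR adjusted p = 0.0132) and with upper-quartile factors (0.28, edgeR adjusted p = 0.0233), and was at -0.11 and -0.12 on the TPM scales. TFDP3 had at most 1 count in any library and was not tested.

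MuvB is the core that joins E2F4 or E2F5 and a pocket protein to form the repressor DREAM, and joins MYBL2 and FOXM1 to switch on G2 and M phase genes. The list of 8 genes holds MuvB members and the partners MYBL1, MYBL2 and FOXM1. Of these 8, 7 fell, beside 26.9% of all tested genes, and the median log2 fold change was -1.12. MYBL2 was at -2.10 ± 0.11 (SE), LIN37 at -1.86 ± 0.14 (SE), MYBL1 at -1.32 ± 0.083 (SE) and FOXM1 at -1.14 ± 0.10 (SE). LIN52, whose protein links MuvB to the pocket protein, was at -1.10 ± 0.11 (SE), LIN54 at -1.0 ± 0.064 (SE) and LIN9 at -0.38 ± 0.089 (SE). LIN9 was not called on the TPM scales (limma adjusted p = 0.121 and 0.0893). RBBP4, the histone-binding member, was at -0.11 (edgeR adjusted p = 0.408), was called with the replicate block (adjusted p = 0.0106) and with GC-corrected offsets (-0.24, adjusted p = 0.0193), and was at 0.0076 with upper-quartile factors.

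Cyclin-dependent kinases with D, E and A cyclins phosphorylate pocket proteins. Of 11 tested cyclins, kinases and their regulators, 10 fell, beside 26.9% of all tested genes, with a median of -0.77. CDK4 had the lowest log2 fold change, -2.25 ± 0.058 (SE), at 109, 113 and 114 CPM in DMSO and 24.4, 22.3 and 24.0 CPM in auxin. CDK6, the other kinase that pairs with D cyclins, rose by 0.40 ± 0.079 (SE), at 688, 592 and 604 CPM in DMSO and 855, 841 and 797 CPM in auxin. Of 7 CDK inhibitors, 4 fell and 2 rose, beside 26.9% and 25.4% of all tested genes, with a median of -0.49. CDKN1C, which encodes p57, was lowest at -3.41 ± 0.22 (SE) and CDKN2B, which encodes p15, highest at 0.51 ± 0.10 (SE). The count of CDK inhibitors that rose was 1 instead of 2 when any of the 6 libraries was left out.

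Of 30 S phase genes known as E2F targets, 28 fell and the median was -0.88, beside 26.9% of all tested genes called lower. CDC45, a part of the replicative helicase, had the lowest log2 fold change of these, -3.27 ± 0.095 (SE), at 24.0, 25 and 26.9 CPM in DMSO and 2.64, 2.39 and 2.80 CPM in auxin. MCM6, a helicase subunit, was at -0.20 and did not pass the test (edgeR adjusted p = 0.173), and all 30 were called lower with the replicate block. E2F letters were found in 12 of the 26 S phase genes that have a promoter entry. Among all tested genes with an entry, 510 had them and 11107 did not. The list was picked as known E2F targets, and any part of the letters in these changes was not tested. Of 8 apoptosis genes known as E2F1 targets, 5 fell, beside 26.9% of all tested genes, with a median of -0.53, and APAF1, the core of the apoptosome, was lowest at -1.63 ± 0.080 (SE).

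Of 12 partners of E2F6 in PRC1.6, 4 rose and 3 fell, shares near the 25.4% and 26.9% of all tested genes, with a median of 0.11. RING1, a ubiquitin ligase of the complex, was lowest at -2.42 ± 0.087 (SE), and MGA, the DNA-binding scaffold, was highest at 0.61 ± 0.054 (SE). Among 10 germline genes that E2F6 is known to silence, 6 were tested and 2, SMC1B and TDRKH, rose, beside 25.4% of all tested genes. SMC1B, a meiotic cohesin gene, stood at 0.237, 0.234 and 0.258 CPM in DMSO and 0.472, 0.456 and 0.533 CPM in auxin, a log2 fold change of 1.00 ± 0.16 (SE) at a very low level, and TDRKH was at 0.72 ± 0.099 (SE). Of 10 chromatin partners of RB1, 6 fell and 3 rose, beside 26.9% and 25.4% of all tested genes, with a median of -0.67. HDAC3, a histone deacetylase, was lowest at -2.88 ± 0.099 (SE) and KMT5B, a histone H4 methyltransferase, highest at 0.37 ± 0.083 (SE).

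**Figure D5:**
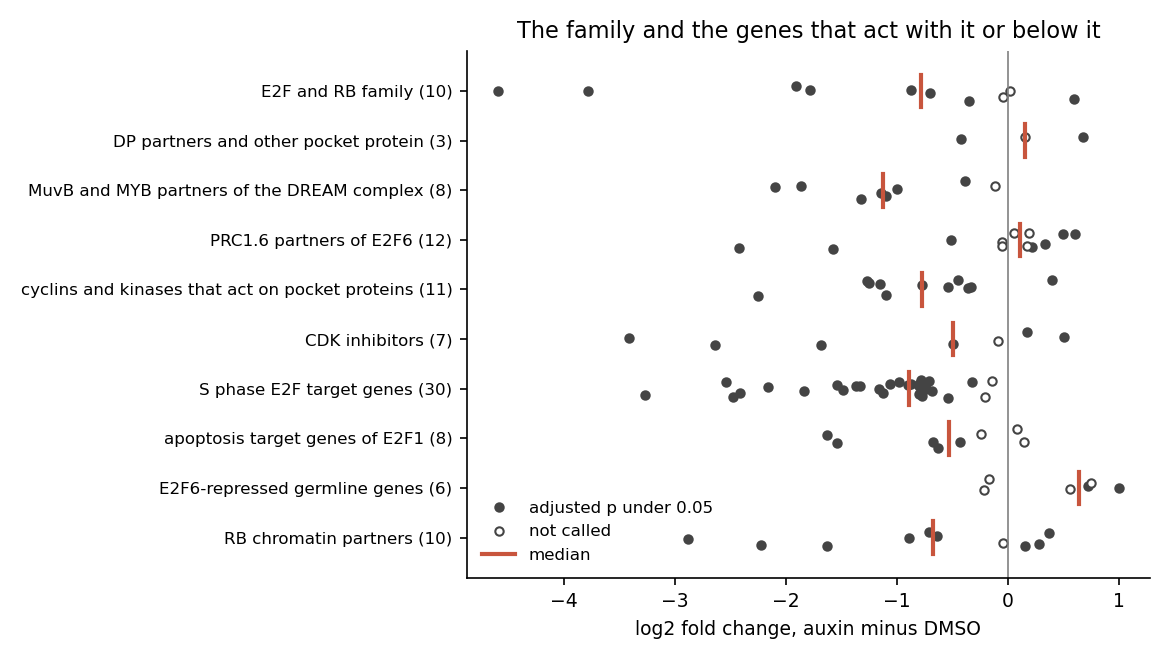
Log2 fold change (auxin minus DMSO) of each tested gene of the family and of 9 lists of its partners, regulators and targets, with the number tested in parentheses; filled circles passed an adjusted p of 0.05 and open ones did not, and the bar is the median of the list. The medians of the MuvB and S phase lists are at -1.12 and -0.88, and that of the PRC1.6 list is at 0.11.

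Profiles across the 6 libraries were compared with that of E2F1 over 12847 genes with a mean of at least 1 CPM. Genes whose names hold lower-case letters, dots or several hyphens were then passed over. The nearest left were LYPLA2, KLC2 and MINK1, with root mean square differences of 0.068, 0.12 and 0.16 in centred log2 CPM. LYPLA2 stood at 24.7, 20.3 and 21.3 CPM in DMSO and 1.15, 0.749 and 0.749 CPM in auxin, below E2F1 in each library but with nearly the same differences between libraries on the log2 scale. The log2 fold changes were -4.63 for LYPLA2, -4.64 for KLC2 and -4.58 for MINK1. These genes were picked for likeness to E2F1 in the same libraries, so their likeness in fold change follows from that choice.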

How the data were processed

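The authors deposited, per the file headers, gene and transcript tables with expected counts and TPM values for each of 6 HCT116 libraries, from ribosome-depleted total RNA per the labels' protocols. bcl2fastq 2.20, STAR, DESeq2 and the builds GRCh38 and hg38 appear in the submitters' processing notes without roles. The deposited values include the authors' posterior SD of each count, at most 0.129% of a member's count at the gene level. For member transcripts it reached 3.46% of the gene's count, at E2F8-202. Over the 6 libraries it was at most 1.83% for E2F4-201 and 1.76% for E2F4-208. The E2F4-208 share was 1.06% in DMSO and 7.72% in auxin, and the maximum may come from either group. The counting program and its use of strand are not given in the sources used here. Entries that name no gene, 96 ERCC spike-in entries among them, took 0.000255% to 0.00111% of counts and were left out.

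Expected counts were rounded and tested with edgeR 4.0.16 (TMM, filterByExpr, quasi-likelihood F test, Benjamini-Hochberg over all 19725 genes), in R 4.3.3. Transcript shares were tested with limma 3.58.1 on log2 of a transcript's counts over the rest of its gene's counts, 0.5 added to both, for transcripts with a mean share of 1% to 99% in genes with a mean count of at least 100. Alternatives were DESeq2 1.42.0, upper-quartile factors, other filters on low counts, limma on log2(TPM + 1) and log2(TPM + 0.1), replicate number as a block, replicates 2 and 3 only, each library left out, diffSpliceDGE, other share settings, and GC-corrected offsets, the last chosen after seeing the data. The tests were also run on simulated data in which few genes or transcripts changed. Many changed here, so that run cannot vouch for these calls. In the deviations from group means, DMSO and auxin libraries of the same number correlated at 0.621, 0.241 and 0.249, but DMSO 3 with auxin 2 and DMSO 2 with auxin 3 at 0.288 and 0.158, so the numbers set apart replicate 1 and not replicates 2 and 3. The main tests are unpaired, and the blocked value is printed where it changes a call.

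The members and lists were chosen with earlier results of these data known. Named beside the 10 members were all DP and MuvB partners. From each other list, the called gene with the largest rise and the largest fall was named. The 3 profiles nearest to E2F1, after the cut on names, were also named. So were, in each member, the transcript with the highest mean share and the called ones. TDRKH, MCM6, E2F3-201, E2F3-203, E2F8-201 and the overlapping genes fall outside this rule and were named after their values were seen.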

Additional observations from a re-analysis of the deposited data

How the results depend on the processing

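Over 16 alternatives for genes, E2F1, E2F2, E2F4, E2F7, E2F8 and RB1 stayed called lower; E2F1 ranged from -4.76 to -3.26 and E2F4 from -4.03 to -3.08. Members called lower numbered 6 to 8. On log2(TPM + 1) and log2(TPM + 0.1), 970 and 1017 genes were called higher and 2966 and 3223 lower, and limma called 0 members and 0 listed partners or targets higher on either scale. At an unadjusted p under 0.05, these fits had 0 and 1 members and 1 and 2 listed genes higher; edgeR called 13 listed genes higher. GC-corrected offsets with the replicate block called 7557 genes higher. The sign turned for E2F3 (0.075) and RBBP4 (0.0076) with upper-quartile factors, and for TFDP2 (-0.11 and -0.12) on the TPM scales. E2F6 turned to -0.0013 without a filter on low counts, to -0.13 on both TPM scales, to -0.075 with GC-corrected offsets and to -0.073 with these and the block, and ranged from -0.031 to 0.050 when each library was left out. The cause was not tested.

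With the replicate block alone, 7005 genes were called higher and 6789 lower, and members stayed at 7 lower and 1 higher. Listed genes called numbered 17 higher and 68 lower with this pairing, against 13 and 64 without it. Among named genes and transcripts it added calls for TFDP2, RBBP4, MCM6, E2F3-201 and E2F3-202 and changed no other.

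Transcript shares called numbered 7092, but 2541 by diffSpliceDGE and 3644 to 5931 when a library was left out, lowest without DMSO replicate 2 and 3932 without DMSO replicate 3. With a mean share of at least 5%, fewer transcripts were tested and 1 member transcript was called. When each library was left out, uncalled share changes went from -0.072 to 0.092 for E2F5-202 (-0.0013 by diffSpliceDGE), -0.11 to 0.030 for E2F6-207, -0.32 to 0.084 for E2F7-201 and -0.13 to 0.092 for E2F8-202. With replicates 2 and 3 only, E2F1 was at -4.65 and E2F4 at -3.92. Depth limits SMC1B, with 66 to 305 counts per library.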
